A study of Mus musculus with 2 samples.

Results

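The histone cluster genes are named for the linker and core histones, and most lie together in a few stretches of the mouse genome. They were taken from the expression table as every gene whose symbol begins with *Hist1h*, *Hist2h*, *Hist3h* or *Hist4*, which gave 42 of 11691 genes. There were 5 linker histone genes (H1) and 37 core histone genes, of which 13 are named for H2A, 11 for H2B, 7 for H3 and 6 for H4. The genes were followed in single cells from 2 explant cultures of C57/BL6 mouse concepti, with 1 library for each culture. Em-Ex came from intraembryonic tissues and YS-Ex from yolk sac, both dissected at E8.5, when concepti had 5 to 7 somite pairs. Both cultures were kept at the air-liquid interface for 9 to 10 days with SCF, IL-3 and FLT3 ligand at 100 ng/ml each, and both were sorted for CD31+CD45+c-Kit+CD41- cells before droplet capture of polyadenylated RNA. By the paper's account both cultures came from the same concepti, and each library pooled the explants of many of them. The spread between concepti was therefore not measured, and no test between the cultures was possible.

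Linker histones bind where DNA enters and leaves the nucleosome, the core particle built of H2A, H2B, H3 and H4, and they help to fold chromatin. Most cluster genes are transcribed in S phase, when new DNA has to be packed, and most of their mRNAs end in a conserved stem-loop in place of a poly(A) tail. A stem-loop binding protein recognises this end and sets the processing, translation and decay of the mRNA. Some cluster genes also give polyadenylated mRNAs, which can persist in cells that have stopped dividing. The libraries were primed on poly(A), so the counts do not measure histone mRNAs that end at the stem-loop in full.

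Of the 42 genes, 41 were matched to the GENCODE M21 annotation of mm10. There, 32 lie on chromosome 13, 6 on chromosome 3, 2 on chromosome 11 and 1 on chromosome 6, and 39 are annotated with a single exon. The stem-loop letters were found in the annotated transcripts of 30 of them. Windows of at most 30 bases are shown for 6 genes on which the results turn, because mRNAs that end at this element lack the poly(A) tail on which the libraries were primed. Capitals mark the stem and its loop, and the strand is that of the gene.
*Hist1h1e* (chr13:23621775-23621804, minus strand): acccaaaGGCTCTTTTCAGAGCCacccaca
*Hist1h1c* (chr13:23739505-23739534, plus strand): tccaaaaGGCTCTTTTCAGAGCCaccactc
*Hist1h4d* (chr13:23581943-23581972, plus strand): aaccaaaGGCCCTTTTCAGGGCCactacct
*Hist1h2ae* (chr13:23570661-23570690, minus strand): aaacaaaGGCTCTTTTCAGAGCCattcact
*Hist1h2ap* (chr13:21833026-21833051, minus strand): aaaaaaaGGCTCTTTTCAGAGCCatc
*Hist2h4* (chr3:96262932-96262961, minus strand): ccctaacGGCCCTTTTTAGGGCCaaccaca
The annotated transcript ran on for 1153 bases after the stem-loop in *Hist1h1e*, 840 in *Hist1h1c*, 770 in *Hist1h4d*, 151 in *Hist1h2ae* and 1257 in *Hist2h4*. In *Hist1h2ap* it ended 3 bases after it. The letters were not in the annotated transcripts of *Hist1h1b* (743 bases) and *Hist1h1a* (741 bases), and sequence past their annotated ends was not searched.

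The upstream sequences of the 3 linker genes with most UMIs are shown because these genes differed in how far the libraries stood apart. Each window holds the 250 bases before and the 50 bases after the RefSeq start on GRCm38. Capitals mark the letters AAACACA, the CCAAT box and the TATA box as TATAAA. Each was searched on both strands, and no capitals belong to more than 1 motif.
*Hist1h1e*, RefSeq *H1f4* (chr13:23622509-23622808, minus strand): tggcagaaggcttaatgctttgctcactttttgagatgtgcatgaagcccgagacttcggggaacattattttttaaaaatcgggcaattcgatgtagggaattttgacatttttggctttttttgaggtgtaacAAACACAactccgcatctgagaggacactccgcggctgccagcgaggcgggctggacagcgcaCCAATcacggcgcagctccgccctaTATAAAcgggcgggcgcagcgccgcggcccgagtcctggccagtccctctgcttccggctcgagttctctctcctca
*Hist1h1c*, RefSeq *H1f2* (chr13:23738557-23738856, plus strand): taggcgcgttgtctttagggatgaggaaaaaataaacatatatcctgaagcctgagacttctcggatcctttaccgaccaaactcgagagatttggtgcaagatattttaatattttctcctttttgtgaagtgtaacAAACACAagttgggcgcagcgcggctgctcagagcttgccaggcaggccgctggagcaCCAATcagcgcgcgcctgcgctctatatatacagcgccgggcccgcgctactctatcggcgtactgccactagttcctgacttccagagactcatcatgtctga
*Hist1h1b*, RefSeq *H1f5* (chr13:21780576-21780875, minus strand): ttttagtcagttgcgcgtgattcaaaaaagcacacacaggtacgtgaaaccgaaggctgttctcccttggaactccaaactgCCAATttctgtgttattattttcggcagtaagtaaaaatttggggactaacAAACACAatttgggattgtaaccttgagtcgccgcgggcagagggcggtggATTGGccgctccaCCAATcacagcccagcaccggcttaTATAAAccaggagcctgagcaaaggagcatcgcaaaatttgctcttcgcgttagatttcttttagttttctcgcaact
AAACACA, an element known from H1 promoters, was in the windows of 4 of 5 linker genes and 2 of 30 core genes with a window, against 7.18% of 32851 RefSeq promoters of the same length. CCAAT was in 32 of 35 windows of cluster genes, against 37.4% of all promoters. TATAAA was in 20 of 35, against 13.6%. The window of *Hist1h1c* held no TATAAA. These matches describe the letters only.

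After removal of cells outside the limits on genes and mitochondrial reads, 3071 Em-Ex cells with 42752370 UMIs and 2087 YS-Ex cells with 27031627 UMIs remained. The deposited counts held 3504 Em-Ex and 3037 YS-Ex barcodes, so the limits removed a larger part of YS-Ex. The median depth was 12341 and 11729 UMIs per cell. Before these limits 35 barcodes occurred in both libraries, of which 33 were kept in Em-Ex and 32 in YS-Ex. Levels are UMIs pooled over the cells of a library, per 1000000 UMIs of that library (CPM), with exact 95% intervals that cover counting error only. Fewer cells with a transcript and less of it per cell cannot be told apart in a pooled level. Both libraries held transcripts of the genes of the sort. *Kit* stood at 262 CPM in Em-Ex against 963 in YS-Ex, *Ptprc* (CD45) at 47.4 and 106, *Pecam1* (CD31) at 47.4 and 51.8, and *Itga2b* (CD41, which the sort excluded) at 16.4 and 14.1. The 12 mast cell genes summed to 30158 CPM in Em-Ex against 45124 CPM in YS-Ex. *Malat1*, a nuclear RNA, was 2.27-fold higher in YS-Ex. The median mitochondrial share was 3.15% in Em-Ex and 3.59% in YS-Ex. The part of these differences in the results was not tested.

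Summed, the 5 linker genes stood further apart between the libraries than the summed core genes. Most of the linker difference lay in *Hist1h1e* (20.2 CPM in Em-Ex against 192 in YS-Ex) and *Hist1h1b* (12.6 against 83.9). Together they were at 253 CPM in Em-Ex (95% interval 248 to 258) against 541 CPM in YS-Ex (532 to 550), which is 2.14-fold higher in YS-Ex. The 37 core genes were at 331 CPM (326 to 337) and 396 CPM (388 to 403), a 1.19-fold difference. On the log2 scale, the Em-Ex to YS-Ex ratio was -1.10 for the linker genes and -0.26 for the core genes, and the difference of these ratios was -0.84 (-0.89 to -0.79). Linker genes made up 43.3% of the cluster UMIs in Em-Ex and 57.8% in YS-Ex. These differences between libraries were known when the genes were chosen and are given as a description.

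The linker transcripts also differed in kind. *Hist1h1c* held 84.4% of the linker UMIs in Em-Ex and 46.0% in YS-Ex. *Hist1h1e* held 7.98% and 35.5%, and *Hist1h1b* held 4.99% and 15.5%. Without *Hist1h1c*, the other 4 linker genes summed to 39.6 CPM in Em-Ex (37.7 to 41.5) against 292 CPM in YS-Ex (286 to 298), a 7.38-fold difference.

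**Figure D1:**
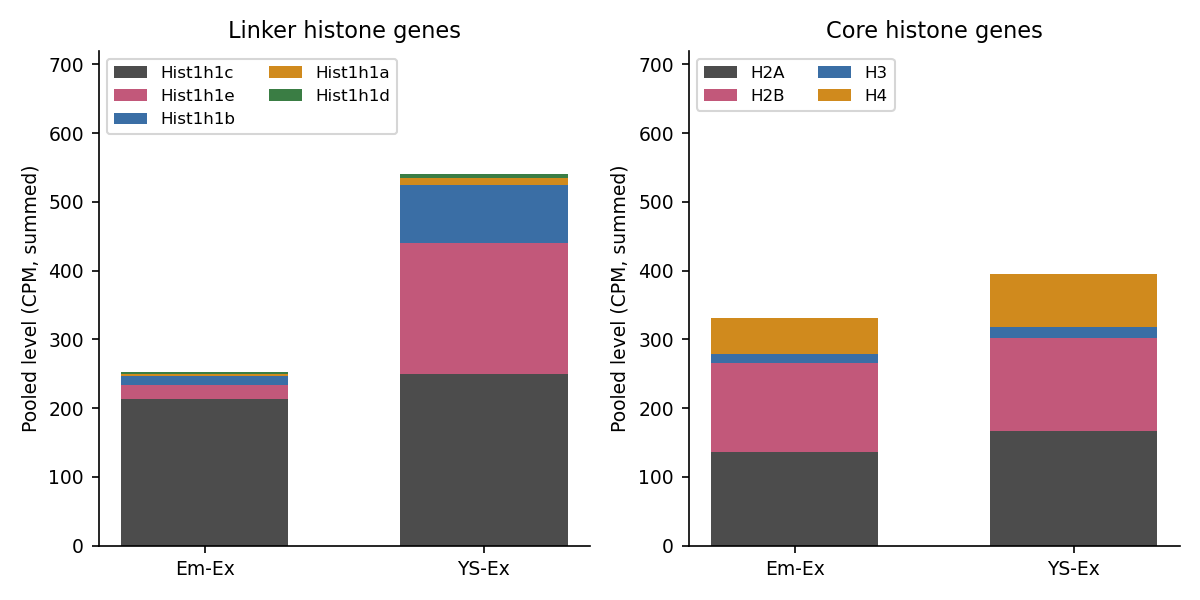
Pooled levels (CPM, stacked bars from 0) of the 5 linker genes (left) and of the core genes summed by histone (right) in the Em-Ex and YS-Ex libraries. The *Hist1h1c* block was 213 and 249 CPM, while the *Hist1h1e* block was 20.2 CPM in Em-Ex against 192 CPM in YS-Ex.

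*Hist1h1e* (ENSMUSG00000051627.3, chr13:23620629-23622558, 1 exon, minus strand) was at 20.2 CPM in Em-Ex (18.9 to 21.6) against 192 CPM in YS-Ex (187 to 197). It was 9.51-fold higher in YS-Ex (8.84 to 10.2), the third lowest Em-Ex to YS-Ex ratio of the 10303 genes compared, which had at least 100 UMIs in all and were above 0 in both libraries. A *Hist1h1e* UMI was seen in 19.2% of Em-Ex cells (17.9 to 20.7) and 65.1% of YS-Ex cells (63.0 to 67.2). With every cell thinned to 2000 UMIs, the shares were 3.81% and 25.5%. No cell type in the sort is expected to lack histone transcripts, so no background share could be set beside these. The annotation overlaps *Hist1h1e* with *Hist1h2be* on the same strand and with *Gm11398*, and how the authors' counting treated reads from the overlap is not given in the sources used here.

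*Hist1h1b* (ENSMUSG00000058773.2, chr13:21779883-21780625, 1 exon, minus strand) was at 12.6 CPM in Em-Ex (11.6 to 13.7) against 83.9 CPM in YS-Ex (80.4 to 87.4), 6.64-fold higher in YS-Ex (6.04 to 7.31). None of its windows of 50 bases occurs in another of the 41 cluster genes matched to the annotation. *Hist1h1a* was at 4.0 CPM (3.42 to 4.65) and 9.73 CPM (8.59 to 11), and *Hist1h1d* at 2.76 CPM (2.28 to 3.31) and 6.44 CPM (5.52 to 7.47). Both were more than 1.5-fold lower in Em-Ex, with intervals apart. *Hist1h1c* (ENSMUSG00000036181.2, chr13:23738808-23740367, 1 exon, plus strand) was the linker gene with the smallest difference, at 213 CPM (209 to 218) and 249 CPM (243 to 255), a 1.17-fold higher level in YS-Ex (1.13 to 1.20).

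Of the 42 genes, 30 had at least 100 UMIs in all and were above 0 in both libraries. Of these, 16 were lower in Em-Ex by at least 1.5-fold, or 53.3%, against 23% of all 10303 genes compared. Only 2 were higher by at least 1.5-fold, against 15.7% of all genes. The median log2 ratio was -0.68 over the 30 and -0.03 over all genes compared. A further 6 genes were above 0 in both libraries with fewer than 100 UMIs: *Hist1h2an*, *Hist1h2bb*, *Hist1h2bn*, *Hist1h3i*, *Hist1h4h* and *Hist2h2bb.1*, at 0.608 to 1.38 CPM in Em-Ex and 0.999 to 2.03 CPM in YS-Ex.

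The other 6 genes were listed at 0 in 1 library. In each library the table held no gene seen in fewer than 30 barcodes, so a gene listed at 0 can still have had some UMIs and no ratio was taken. *Hist3h2ba*, an H2B gene on chromosome 11, had 238 UMIs in Em-Ex, 5.57 CPM, and was listed at 0 in YS-Ex. Its Em-Ex level was 13.2 CPM (11.5 to 15.2) in cells low in *Cpa3* and 1.28 CPM (0.890 to 1.78) in cells high in it, a division defined further on. *Hist1h2bk*, *Hist1h2bm*, *Hist1h3d* and *Hist2h3c2* were likewise listed at 0 in YS-Ex, with 29 to 57 UMIs in Em-Ex. *Hist1h2ai* was listed at 0 in Em-Ex and had 29 UMIs in YS-Ex.

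**Figure D2:**
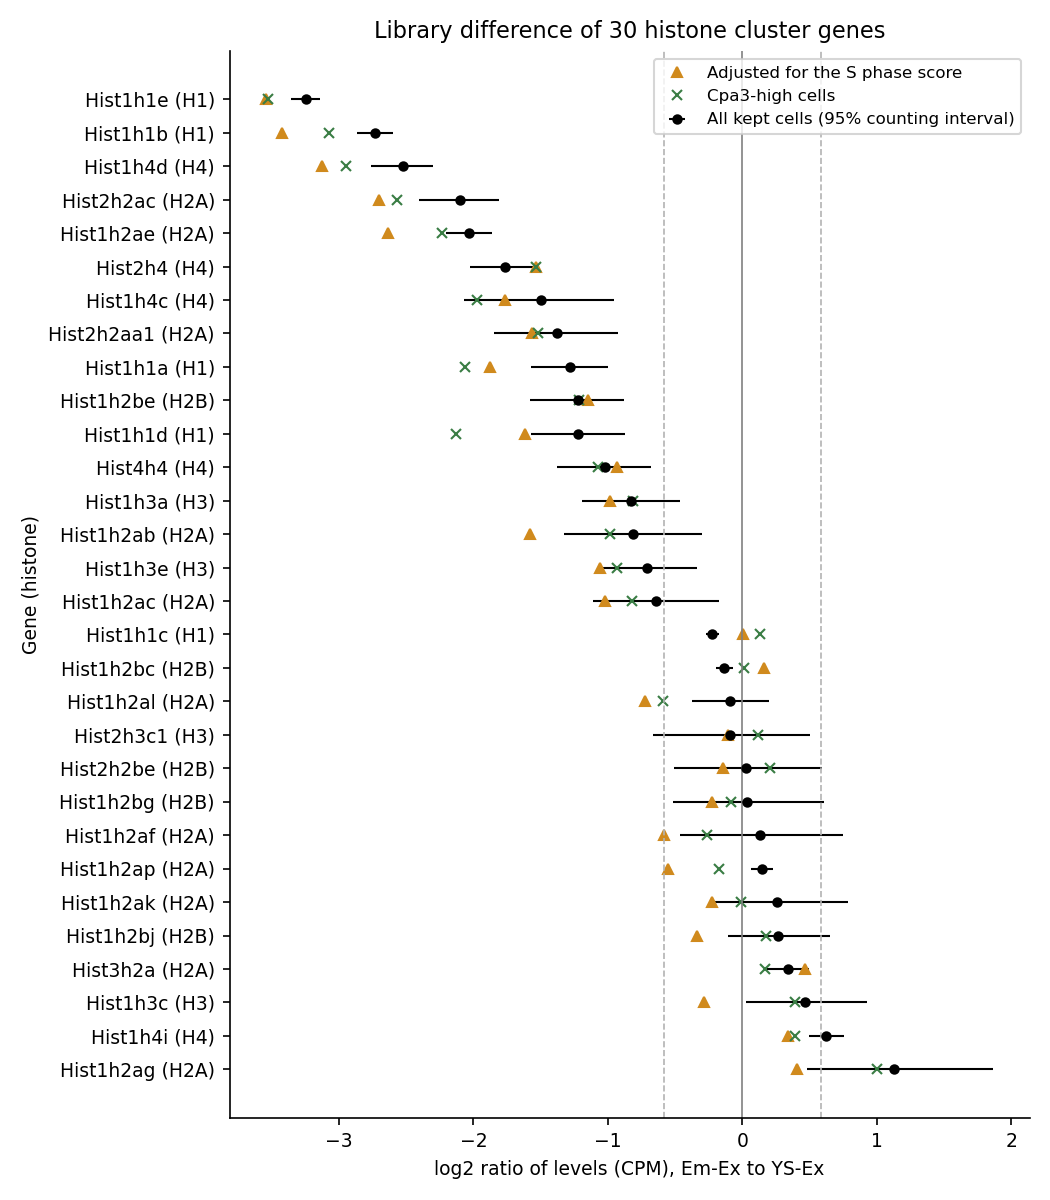
log2 ratio of the Em-Ex to the YS-Ex level (horizontal axis) for the 30 compared genes, as circles with 95% counting intervals for all kept cells, triangles after adjustment for the S phase score and crosses for Cpa3-high cells. Dashed lines mark 1.5-fold, and the 16 genes from *Hist1h1e* (-3.25) to *Hist1h2ac* (-0.64) lie left of the lower line in all 3 series.

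Among the core genes, those for H4 differed most often. H4 forms a pair with H3 at the centre of the nucleosome, and its cluster genes encode the same protein. *Hist1h4d* (chr13:23581598-23582735, plus strand) was at 4.70 CPM in Em-Ex (4.07 to 5.40) against 27.1 CPM in YS-Ex (25.2 to 29.1), 5.76-fold higher in YS-Ex (4.92 to 6.77). *Hist2h4* was at 4.42 CPM (3.81 to 5.10) and 15.1 CPM (13.6 to 16.6). *Hist1h4c* and *Hist4h4* were 2.84-fold and 2.04-fold higher in YS-Ex, though *Hist4h4* had a log2 ratio of -0.35 (-1.06 to 0.44) in cells with a high S phase score. *Hist1h4i* went the other way, at 38.5 CPM in Em-Ex (36.6 to 40.4) against 25 CPM in YS-Ex (23.1 to 26.9), 1.54 times the YS-Ex level (1.41 to 1.69). So 4 of 5 compared H4 genes were lower in Em-Ex, against 23% of all genes, and 1 was higher, against 15.7%. The call of *Hist1h4i* lay near the limit. Its log2 ratio of 0.62 was 0.48 as the mean over cells, 0.39 after thinning to 2000 UMIs per cell, 0.58 without the 50 genes of most UMIs in the totals, 0.34 after adjustment for S phase and 0.39 in Cpa3-high cells, all short of 1.5-fold.

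H2A genes were split. H2A pairs with H2B on the outer faces of the core particle. *Hist1h2ae* was at 9.15 CPM in Em-Ex (8.26 to 10.1) against 37.4 CPM in YS-Ex (35.2 to 39.8), 4.09-fold higher in YS-Ex (3.64 to 4.61). *Hist2h2ac* was at 2.99 CPM (2.50 to 3.56) and 12.9 CPM (11.6 to 14.3), 4.30-fold higher in YS-Ex (3.50 to 5.31). *Hist2h2aa1*, *Hist1h2ab* and *Hist1h2ac* were 2.60-fold, 1.76-fold and 1.56-fold higher in YS-Ex, but after thinning to 2000 UMIs per cell *Hist1h2ab* had a log2 ratio of 1.21 and *Hist1h2ac* of -0.40, which ended both calls. In S-low cells, defined further on, *Hist1h2ab* had 1.07. *Hist1h2ap*, the H2A gene with most UMIs, was at 83.1 CPM in Em-Ex (80.4 to 85.9) against 75.1 CPM in YS-Ex (71.9 to 78.4). *Hist1h2ag* was 2.21 times as high in Em-Ex (1.39 to 3.64), on 84 and 24 UMIs. After adjustment for S phase its log2 ratio was 0.40 (-0.26 to 1.07), short of 1.5-fold. It was 0.891 times the YS-Ex level in S-high cells and 5.61 times in S-low cells, there on 33 and 5 UMIs. The other H2A genes, *Hist1h2af*, *Hist1h2ak*, *Hist1h2al* and *Hist3h2a*, had log2 ratios from -0.09 to 0.34, with *Hist1h2ak* at 0.80 after thinning. *Hist1h2al* is annotated as a processed pseudogene.

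For H2B, 1 of 5 compared genes was lower by at least 1.5-fold, or 20%, near the 23% of all genes. *Hist1h2bc*, the core gene with most UMIs, was at 108 CPM in Em-Ex (105 to 111) against 118 CPM in YS-Ex (114 to 123). *Hist1h2be*, which overlaps *Hist1h1e*, was at 2.74 CPM (2.26 to 3.28) and 6.40 CPM (5.48 to 7.43). *Hist1h2bg*, *Hist1h2bj* and *Hist2h2be* had log2 ratios from 0.03 to 0.26, with intervals that included 0. For H3, *Hist1h3a* was at 2.83 CPM (2.35 to 3.38) and 5.03 CPM (4.22 to 5.95), and *Hist1h3e* at 2.90 CPM (2.41 to 3.46) and 4.74 CPM (3.95 to 5.63). *Hist1h3c* (log2 ratio 0.47) and *Hist2h3c1* (-0.09) did not pass 1.5-fold. The calls of *Hist1h3a* and *Hist1h3e* did not hold after thinning to 2000 UMIs per cell, where their log2 ratios were 0.13 and 0.31. *Hist1h3c* passed 1.5-fold after thinning (1.11) and as the mean over cells (0.82), and *Hist1h2bj* (1.03) and *Hist2h2be* (0.70) did so after thinning.

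Histone transcripts follow DNA replication, and the libraries differed in their share of cells with many S phase transcripts. A score was taken for each cell as its UMIs of 38 S phase genes per 10000 UMIs, and none of these genes is a cluster gene. Cells in the top 25% of this score made up 31.6% of Em-Ex (29.9 to 33.3) and 15.3% of YS-Ex (13.8 to 17.0). They are called S-high and the rest S-low, which is a range of the score and not a cell type, and 170 Em-Ex and 64 YS-Ex cells lay within 10% of the cut. S-high cells were deeper, with a median of 18154 UMIs in Em-Ex and 19218 in YS-Ex against 10558 and 10983 in S-low cells.

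Within each library most cluster genes were higher in S-high cells. In Em-Ex 22 of the 30 genes were higher by at least 1.5-fold, against 21.5% of all genes compared, and 3 were lower, against 13%. In YS-Ex 23 were higher, against 18.7%, and 5 lower, against 9.35%. The lower genes were *Hist1h1c*, *Hist1h2bc* and *Hist2h4* in both libraries, and *Hist3h2a* and *Hist4h4* in YS-Ex. *Hist1h2ap* was at 172 CPM in S-high and 18.7 CPM in S-low cells of Em-Ex, a ratio of 9.16 (8.31 to 10.1). In YS-Ex it was at 296 and 12.5 CPM, which is 23.7 times as high (20.8 to 27.1). *Hist1h1b* rose 10.1 times in Em-Ex (7.75 to 13.2), from 2.63 to 26.4 CPM, and 15.8 times in YS-Ex (14.2 to 17.6), from 19.7 to 310 CPM. *Hist1h2ae* had ratios of 4.29 and 14.1, and *Hist1h4d* of 3.75 and 7.18. In all 4 genes the Em-Ex interval lay below that of YS-Ex. The contrast itself was smaller in Em-Ex, where the summed S phase genes had a ratio of 4.47 and the G2/M genes of 1.81, against 5.72 and 4.24 in YS-Ex, and its part in these values was not tested.

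*Hist1h1e* was less bound to the score. In YS-Ex it was at 388 CPM in S-high and 136 CPM in S-low cells, a ratio of 2.84 (2.69 to 3.0), and in Em-Ex at 29.7 and 13.2 CPM, a ratio of 2.24 (1.95 to 2.58). In the lowest 10% of cells by the score it was still at 125 CPM in YS-Ex (111 to 140) and 12.5 CPM in Em-Ex (8.67 to 17.3). *Hist1h1b* in the same cells was at 17.0 CPM in YS-Ex (12.0 to 23.3) and 1.07 CPM in Em-Ex (0.220 to 3.12). For *Hist1h1e* the YS-Ex level was thus above that of Em-Ex with intervals apart also where S phase transcripts were scarcest.

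A few genes ran against the score. *Hist1h1c* was at 103 CPM in S-high and 294 CPM in S-low cells of Em-Ex, a ratio of 0.350 (0.332 to 0.368), and at 157 and 275 CPM in YS-Ex, giving 0.571 (0.533 to 0.612). *Hist1h2bc* had ratios of 0.351 and 0.347. *Hist2h4* had 0.656 and 0.471, and *Hist3h2a* 0.725 and 0.631. *Hist4h4* was at 1.08 in Em-Ex (0.745 to 1.56) and 0.588 in YS-Ex (0.361 to 0.918). With *Hist1h1c* holding most linker UMIs in Em-Ex, the summed linker level was lower in S-high cells there, at 171 against 312 CPM, while in YS-Ex it was higher, at 903 against 439 CPM.

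**Figure D3:**
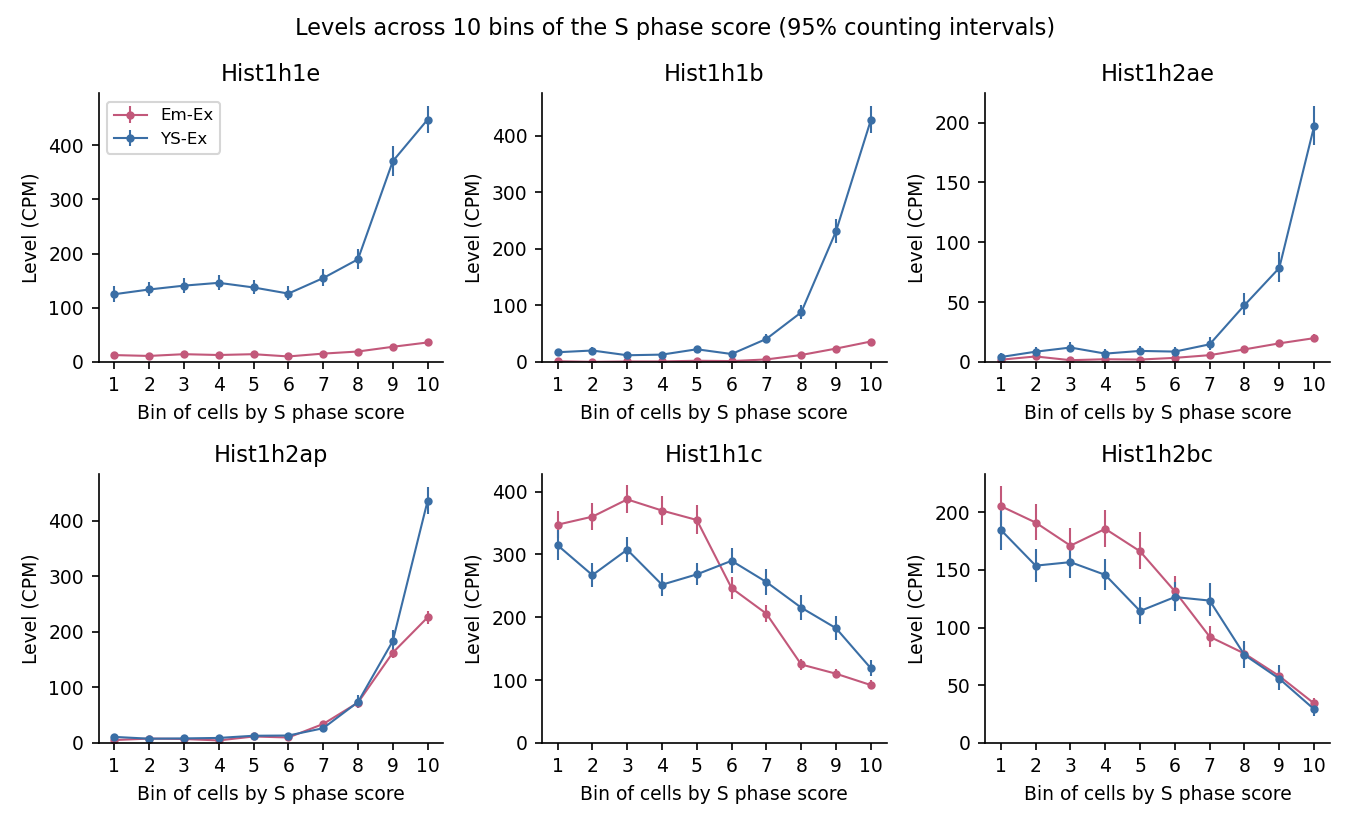
Pooled levels (CPM, from 0) of 6 genes in 10 bins of cells ordered by the S phase score, for Em-Ex and YS-Ex, with 95% counting intervals. *Hist1h1e* stayed above 100 CPM in every YS-Ex bin, *Hist1h1b*, *Hist1h2ae* and *Hist1h2ap* rose in the last bins, and *Hist1h1c* and *Hist1h2bc* fell.

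Adjustment for the score widened most differences. Levels were computed in 10 bins of the score and averaged with the same weights in both libraries, which brought the summed S phase genes from a log2 ratio of 0.47 to -0.04 and 53 G2/M genes from 0.50 to 0.02. The linker genes had an adjusted log2 ratio of -1.12 (-1.16 to -1.09) and the core genes of -0.49 (-0.52 to -0.45). Without *Hist1h1c* the linker genes were 10.0-fold higher in YS-Ex (9.48 to 10.6). *Hist1h1e* moved from -3.25 to -3.54, *Hist1h1b* from -2.73 to -3.43, *Hist1h4d* from -2.52 to -3.12 and *Hist1h2ae* from -2.03 to -2.64. *Hist1h2ap* moved from 0.15 to -0.55 and *Hist1h1c* from -0.22 to 0.00. After adjustment 17 genes were lower in Em-Ex by at least 1.5-fold, against 23.4% of all genes, and 0 were higher, against 10.9%. No test was made of these counts, as with all others here. All 16 genes lower before adjustment remained lower, and *Hist1h2al* (-0.73) joined them. By histone, H2A had -0.85 (-0.90 to -0.79), H4 -0.83 (-0.92 to -0.74), H3 -0.55 (-0.74 to -0.36) and H2B 0.14 (0.08 to 0.20).

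Most cells of both libraries carried *Cpa3*, a mast cell protease gene. Cells with at least 40 *Cpa3* UMIs per 10000 UMIs, called Cpa3-high, made up 71.6% of Em-Ex (70.0 to 73.2) and 93.2% of YS-Ex (92.1 to 94.3), or 2200 and 1946 cells. The 12 mast cell genes summed to 43759 CPM in Cpa3-high cells of Em-Ex and 47441 CPM in those of YS-Ex. In the remaining Cpa3-low cells they summed to 5935 and 12405 CPM. Neutrophil progenitor genes, of which 6 of 10 were in the table, summed to 14.8 and 7.29 CPM in Cpa3-high cells and to 1138 and 4300 CPM in Cpa3-low cells. Among Cpa3-low cells, 8 erythroid genes gave sums of 2140 (Em-Ex) and 1883 (YS-Ex), and 10 macrophage genes gave 682 and 1384. The single gene *Mpo* had the reverse order to the neutrophil sum there, with 363 (Em-Ex) against 178 (YS-Ex). The cells compared as Cpa3-low thus differed in make-up between libraries, and its part in the values was not tested.

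In Cpa3-high cells alone, the linker genes were at 301 CPM in Em-Ex (295 to 308) against 525 CPM in YS-Ex (516 to 534), a log2 ratio of -0.80. The core genes were at 291 CPM (285 to 298) and 374 CPM (367 to 382), a log2 ratio of -0.36. *Hist1h1e* was at 16.0 CPM (14.6 to 17.6) and 185 CPM (180 to 191), 11.5-fold higher in YS-Ex (10.5 to 12.8). *Hist1h1b* was 8.44-fold higher in YS-Ex (7.39 to 9.68) and *Hist1h4d* 7.74-fold (6.19 to 9.77). *Hist1h1c* was slightly higher in Em-Ex, at 273 CPM (267 to 279) against 249 CPM (243 to 256). Of the 30 genes, 17 were lower by at least 1.5-fold, against 25.6% of all genes, and 1 was higher, against 8.42%. The 16 genes lower over all cells were all among the 17, with *Hist1h2al* added, and the higher gene was *Hist1h2ag*.

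In Cpa3-low cells, 871 in Em-Ex and 141 in YS-Ex, *Hist1h1e* was at 27.6 CPM (25 to 30.3) and 286 CPM (262 to 312). *Hist1h1b* was at 19.1 CPM (17.0 to 21.4) and 197 CPM (177 to 219). *Hist1h1c* in Em-Ex was at 107 CPM in Cpa3-low cells against 273 CPM in Cpa3-high cells, and in YS-Ex at 246 against 249 CPM. *Hist1h4i* was at 51.8 CPM (48.2 to 55.5) and 44.8 CPM (35.5 to 55.7) in Cpa3-low cells, with intervals that overlapped.

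**Figure D4:**
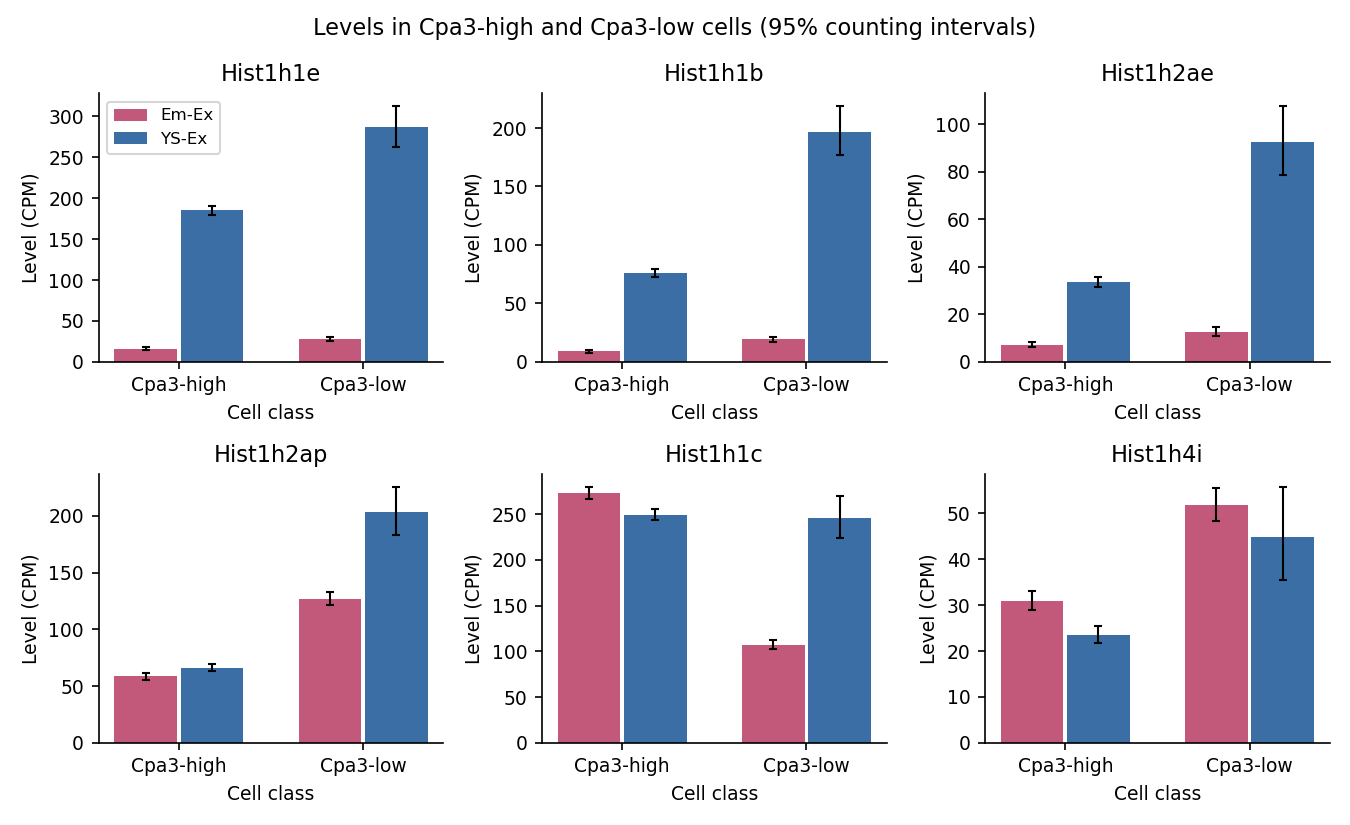
Pooled levels (CPM, bars from 0) of 6 genes in Cpa3-high and Cpa3-low cells of Em-Ex and YS-Ex, with 95% counting intervals. *Hist1h1e* was at 16.0 against 185 CPM in Cpa3-high and at 27.6 against 286 CPM in Cpa3-low cells, while *Hist1h1c* was at 273 against 249 CPM in Cpa3-high and at 107 against 246 CPM in Cpa3-low cells.

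With both divisions combined, linker genes in Cpa3-high, S-high cells were at 218 CPM in Em-Ex against 883 CPM in YS-Ex, a log2 ratio of -2.02 (-2.10 to -1.94). In Cpa3-high, S-low cells they were at 336 and 436 CPM, a log2 ratio of -0.38 (-0.42 to -0.33). For core genes these ratios were -0.98 and -0.14. Without *Hist1h1c*, linker genes had -3.58 and -3.45, so the smaller summed ratio in S-low cells went with the share of *Hist1h1c*.

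Depth and mitochondrial share were set beside *Hist1h1e*, *Hist1h1c* and other cluster genes. Across 4 equal groups of cells ordered by mitochondrial share, *Hist1h1e* ran from 19.0 to 22.1 CPM in Em-Ex and from 149 to 206 CPM in YS-Ex. Across 4 such groups by UMIs per cell it ran from 14.7 to 25.5 CPM and from 143 to 247 CPM. In each of these groups the YS-Ex level of *Hist1h1e* was above every Em-Ex level. *Hist1h1c* did not keep 1 direction across depth. In the shallowest group it was at 378 CPM in Em-Ex (361 to 395) against 313 CPM in YS-Ex (294 to 333), and in the deepest at 111 CPM (106 to 116) against 184 CPM (176 to 192). Cpa3-low cells had a median of 16935 UMIs in Em-Ex and 10227 in YS-Ex. The part of cell make-up in the change of direction was not tested. In cells both Cpa3-high and S-high, *Hist1h1c* was at 157 CPM in Em-Ex against 158 CPM in YS-Ex. In Cpa3-high, S-low cells it was at 321 CPM in Em-Ex against 272 CPM in YS-Ex.

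Histone genes outside the clusters, and genes that handle histones or their mRNAs, were read against all genes compared, of which 23% were lower and 15.7% higher in Em-Ex by at least 1.5-fold. Of 11 histone variant genes outside the clusters, most of which give polyadenylated mRNAs, 9 could be compared. None was lower in Em-Ex by at least 1.5-fold and 4 were higher (*Cenpa*, *H2afx*, *H2afy* and *H2afz*), with a median log2 ratio of 0.42. After adjustment for the S phase score 3 of these, without *H2afz*, were still higher by at least 1.5-fold, against 10.9% of all genes. In Cpa3-high cells 2 were higher (*Cenpa* and *H2afx*), against 8.42% of all genes, with a median of 0.10. *H2afy* turned from a log2 ratio of 1.64 over all cells to -0.17 in Cpa3-high cells. *H1f0*, a linker histone gene outside the clusters, was at 256 CPM in Em-Ex (251 to 261) against 229 CPM in YS-Ex (223 to 235). Its log2 ratio was 0.16 over all cells and 0.37 in Cpa3-high cells. *H3f3b* was at 2590 CPM in Em-Ex against 2589 CPM in YS-Ex, *H2afz* at 1992 and 1279 CPM, and *H3f3a* at 1173 and 917 CPM. *H3f3a* and *H3f3b* encode the replacement histone H3.3, and *H2afz* encodes H2A.Z. Of 17 chaperone and deposition genes, which carry histones to DNA, 2 were lower and 9 higher. The lower genes were *Atrx*, at 65.7 and 192 CPM, and *Supt16*, at 37.8 and 75.9 CPM, which encode a chromatin remodeller and a subunit of FACT. *Npm1* was at 2047 and 1232 CPM, *Set* at 364 and 324 CPM, and *Nap1l1* at 300 and 213 CPM. After adjustment the same 2 were lower, or 11.8% against 23.4% of all genes, and 1, *Chaf1b*, was higher, or 5.88% against 10.9%. In Cpa3-high cells 2 were lower, or 11.8% against 25.6% of all genes, and 3 higher (*Asf1b*, *Chaf1b* and *Hat1*), or 17.6% against 8.42%.

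Of 15 genes for histone mRNA transcription and processing, 2 were lower in Em-Ex, or 13.3% against 23% of all genes, and 4 higher (*Coil*, *Cpsf3*, *Cstf2* and *Snrpd3*), or 26.7% against 15.7%. After adjustment the same 2 were lower and 0 higher, against 23.4% and 10.9% of all genes. In Cpa3-high cells the same 2 were lower and 0 higher, against 25.6% and 8.42%. *Snrpb* was at 430 and 293 CPM and *Snrpd3* at 185 and 123 CPM, both of which encode Sm proteins of small nuclear RNPs. *Slbp*, the stem-loop binding protein, was at 117 CPM in Em-Ex (114 to 120) against 96.0 CPM in YS-Ex (92.3 to 99.7), with an adjusted log2 ratio of -0.04. The lower genes were *Npat*, at 6.88 CPM (6.11 to 7.71) and 14.4 CPM (13 to 15.9), and *Casp8ap2*, at 18.2 CPM (16.9 to 19.5) and 48.5 CPM (45.9 to 51.2). *Npat* encodes the activator of replication-dependent histone genes and *Casp8ap2* a protein of the histone locus body. Genes named here other than those with most UMIs were chosen after their values were seen.

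The compared genes were last set against features of their annotated transcripts. In 9 genes a poly(A) signal (AATAAA or ATTAAA) lay in the last 50 bases, and 4 of these were lower in Em-Ex by at least 1.5-fold, with a median log2 ratio of -0.22. In the 21 genes without one, 12 were lower, with a median of -0.71. Of the 23 genes with stem-loop letters 14 were lower, and of the 7 without them 2 were, where 23% of all genes were lower. Only annotated transcripts were searched, so a stem-loop or poly(A) signal past an annotated end was missed. Among the 7 without stem-loop letters, *Hist1h2ak* was annotated at 393 bases, *Hist1h2af* at 399 and *Hist1h2al* at 339. The feature groups are small and their differences were not tested. TATAAA was in the windows of 10 of 14 lower genes and 3 of 10 other compared genes with a promoter entry. CCAAT was in 13 of 14 and 9 of 10, and AAACACA in 4 of 14 and 1 of 10. Near-identical sequence limits what a single gene's count means. Of the 41 annotated genes, 36 shared a stretch of 50 bases with another of the 41. In 13 over 50% of such stretches were shared, among them *Hist1h2ap* with 75.1% and *Hist1h2ag* with 78.9%. The annotation holds 70 symbols of this form, and those outside the 41 were not searched. For *Hist1h1e* the share was 16.7% and for *Hist1h1b* and *Hist1h1a* 0%. An annotated gene overlapped 16 of the 41.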

How the data were processed

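Sorted cells of 1 Em-Ex and 1 YS-Ex library were sequenced together. UMIs were counted by the authors with Cell Ranger 2.0.1 (bcl2fastq 2.19.1.403, build mm10, per the submitters' processing notes) who deposited the raw counts of genes by cells as 1 table. The annotation release is not given in the sources used here. Every barcode named its library, and 0 columns were unmapped.

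Cells were kept at 1000 to 5000 genes and at most 5% of UMIs from 13 mitochondrial genes, following the study's methods. The legend of the paper's single-cell figure gives 3504 Em-Ex and 3037 YS-Ex cells, the numbers before these limits. Doublets were not removed further. Kept cells held 3302 to 38114 UMIs. Counts were pooled per library or cell class as CPM, with exact Poisson 95% intervals. Ratios had exact conditional binomial intervals, and log2 ratios a prior count of 0.5. Clopper-Pearson intervals were used for shares of cells. All intervals cover counting error only. Cells are not replicates, so no test was run, and a call means at least 1.5-fold. The S phase adjustment averaged CPM over 10 bins of the score. It was run on simulated Poisson counts with the bins taken as known, which cannot test errors in the score itself.

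Every cluster gene was named, those with at least 100 UMIs in detail, with the 3 genes of most UMIs in each further histone list. The erythroid list (8 genes) summed to 837 CPM in Em-Ex against 336 in YS-Ex, the macrophage list (10) to 670 and 454 CPM, and the stromal list (5 of 8 in the table) to 39.9 CPM and 0, all 5 being listed at 0 in YS-Ex. The genes and lists were chosen with earlier results of these data known. Coordinates and transcripts came from GENCODE M21, promoters from RefSeq (GRCm38), in which 35 genes matched. Analyses used Python 3.11.15, numpy 2.4.6, scipy 1.17.1 and pandas 2.3.3. The alternatives were other cell filters, scalings, thinning, bins and *Cpa3* limits.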

Additional observations from a re-analysis of the deposited data

Results flagged for a closer look

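The summed linker genes had opposite orders of S-high and S-low cells in the libraries. The ratio of the S-high to the S-low level was 0.548 in Em-Ex (95% counting interval 0.525 to 0.571) and 2.06 in YS-Ex (1.99 to 2.13). Without *Hist1h1c* the order was the same in both, with ratios of 3.69 and 4.56. The summed linker genes also had opposite orders of Cpa3-high and Cpa3-low cells, with a ratio of 1.81 in Em-Ex (1.73 to 1.89) and 0.684 in YS-Ex (0.647 to 0.723). Here too the order was the same without *Hist1h1c*, at 28.4 CPM in Cpa3-high against 59.5 CPM in Cpa3-low cells of Em-Ex, and at 276 against 522 CPM in YS-Ex. For the summed H2B genes the ratio of the Cpa3-high to the Cpa3-low level was 1.11 in Em-Ex (1.05 to 1.17) and 0.854 in YS-Ex (0.756 to 0.969). Without *Hist1h2bc* the other 10 H2B genes had the same order in both, at 15.4 CPM in Cpa3-high against 31.1 CPM in Cpa3-low cells of Em-Ex, and at 16.4 against 24.1 CPM in YS-Ex. With 1 library per culture these differences between libraries were not tested.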

How the results depend on the processing

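The log2 ratios of the linker genes, the core genes and their difference kept their sign under every alternative run, but their size did not. With every deposited barcode the linker ratio was -1.14 (adjusted for S phase -1.16, core adjusted -0.53), and with a 10% mitochondrial limit -1.04 (adjusted -1.06, Cpa3-high -0.76). With the mean over cells the linker ratio was -0.78 (adjusted -0.96, Cpa3-high -0.61), the core ratio -0.20 (Cpa3-high -0.31) and their difference -0.58. Without the 50 genes of most UMIs in the totals, linker and core were -1.14 and -0.30. With median ratio scaling, linker was -1.05 (adjusted -1.07, Cpa3-high -0.75) and core -0.21 (adjusted -0.43, Cpa3-high -0.31). After thinning to 2000 UMIs, linker was -0.81 (adjusted -0.81, Cpa3-high -0.65), core -0.093 (adjusted -0.27, Cpa3-high -0.26) and the difference -0.71. Without the highest gene of each, linker was -2.88 (adjusted -3.32, Cpa3-high -3.28), core -0.31 (adjusted -0.76, Cpa3-high -0.57) and the difference -2.57. In S-high cells linker and core were -2.40 and -0.97, in S-low cells -0.49 and -0.040. A grid of S phase and G2/M bins gave an adjusted core ratio of -0.55, and *Cpa3* at 80 or more a linker ratio of -0.65. The cause of these shifts was not tested. The count of genes higher in Em-Ex was 2 at 1.5-fold, 1 without the 50 top genes, 6 after thinning and 1 at 2-fold. The share of all genes was not taken under the changed settings, so these counts have no background beside them. The 6 held *Hist1h2ag* but not *Hist1h4i*, and *Hist1h2ab*, *Hist1h2ak*, *Hist1h2bj*, *Hist1h3c* and *Hist2h2be* were added. Thinning reversed *Hist1h3e* (0.31), *Hist1h2ab* (1.21) and *Hist1h3a* (0.13). Genes within 1.5-fold also changed sign, among them *Hist1h2bc*, the core gene with most UMIs (-0.14 to 0.09 after thinning), with 12 sign changes in 8 genes over the 7 alternatives run for single genes. Of the 16 lower genes, 12 were lower after thinning, 14 with the mean over cells and 15 in S-high and in S-low cells. No paired analysis was possible because each culture has 1 library and the labels carry no replicate numbers.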
